A study of Mus musculus with 10 samples.

Results

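The comparison set Tregs that were CD62Llo CD69+ Klrg1- (FR3 Klrg1-, biological replicates 1 and 2) against Tregs that were CD62Lhi CD69- Klrg1- (FR1, biological replicates 1 and 2), which is 4 of the series' 10 arrays. Tregs are regulatory T cells, CD4+ cells kept in their suppressive state by the transcription factor Foxp3. All cells came from the spleen of female C57BL/6 mice aged 9 to 14 weeks, and all were sorted as CD4+ cells carrying a red fluorescent reporter (RFP) at Foxp3, so the reporter is shared by every group. The CD62Llo CD69- Klrg1- group (FR2, 2 arrays) entered the same fit and is given beside single genes. The 2 arrays of FR3 Klrg1- labelled replicates 3 and 4 were left out of the tests because they lie in another array set, as were an FR3 Klrg1+ array and an array whose title and marker text name different groups. RNA from each sort was amplified and hybridised to an Affymetrix Mouse Gene ST 1.0 array, and the values are RMA intensities on the log2 scale, on which a difference of 1 is a doubling. The labels call the arrays of a group biological replicates and do not say how many mice gave the cells of 1 array.

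CD62L is the adhesion molecule with which lymphocytes enter lymph nodes from blood, and Tregs that keep it high circulate through lymphoid organs as central or resting Tregs. On stimulation through the antigen receptor, T cells lose CD62L from the surface and gain CD69, which binds the egress receptor S1pr1 and takes it off the surface, so the cell stays in the tissue. Effector Tregs change their homing receptors, switch on suppressor molecules such as IL-10, and replace a set of transcription factors typical of naive cells with others, among them Blimp-1 (gene Prdm1). The comparison spans the CD62L and the CD69 gate at the same time, so the share of either gate cannot be read from it.

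Arrays of the same group correlated at 0.994 to 0.995 over the 19938 genes tested, and FR3 Klrg1- replicates 1 and 2 correlated with FR1 at 0.982 to 0.984. With the replicates 3 and 4 of their own label they correlated at 0.941 to 0.947. The medians of the 6 arrays lay between 6.22 and 6.36. Only 2 arrays stood on each side, which limits the precision of every value. In limma with Benjamini-Hochberg adjustment over the 19938 genes, 1082 were higher in FR3 Klrg1- (5.43% of those tested) and 979 lower (4.91%), together 10.3%. A count of these calls moved by more than 1.5 times without single arrays: 658 genes were higher without FR3 Klrg1- replicate 2, and 564, 522 and 543 were lower without FR1 replicate 2, FR3 Klrg1- replicate 1 and FR3 Klrg1- replicate 2. When the other 3 grouped arrays were added with no term for the array set, 221 genes were higher and 218 lower. The median difference of all genes was 0.02, and the middle 90% of them lay between -0.42 and 0.46. Changes of at least 1 were called for 274 higher and 154 lower genes, and changes of at least 2 for 38 higher and 10 lower genes.

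**Figure D1:**
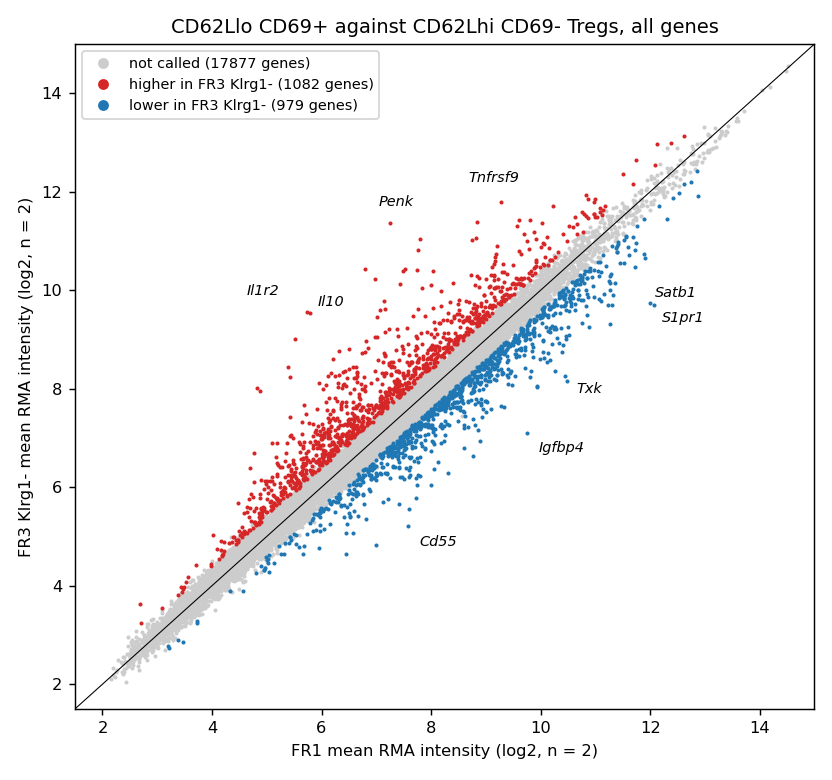
Mean RMA intensity (log2, 2 arrays each) of every gene tested, in FR1 on the horizontal and FR3 Klrg1- on the vertical axis, with the line of equal intensity. The 1082 genes called higher lie above the line in red and the 979 called lower below it in blue, with Penk farthest above at a difference of 4.11 and Igfbp4 farthest below at -2.65.

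The sort could be checked on Klrg1, Cd69, Cd4 and Foxp3. Cd69 read 12.11 and 12.41 in the CD69- FR1 arrays and 12.02 and 12.15 in the CD69+ FR3 Klrg1- arrays, so the transcript did not follow the surface gate (-0.17 ± 0.14 SE, adjusted p = 0.584, limma). On FR3 Klrg1- replicates 3 and 4, also labelled CD69+, Cd69 read 10.24 and 9.73, below both FR1 arrays. Klrg1, an inhibitory receptor for cadherins, read 5.43 and 5.78 in FR1 and 7.21 and 6.54 in FR3 Klrg1-, a rise of 1.27 ± 0.18 (SE, adjusted p = 0.000238, limma) between groups that were both gated as Klrg1-. On the excluded FR3 Klrg1+ array Klrg1 read 12.33. Foxp3 read 10.65 and 10.93 in FR1 and 10.70 and 10.65 in FR3 Klrg1-, ranges that overlap. Cd4 rose by 0.50 ± 0.12 (SE, adjusted p = 0.0157, limma), a call that was lost without FR1 replicate 1 (0.101), FR3 Klrg1- replicate 1 (0.115) or FR3 Klrg1- replicate 2 (0.0842), and its difference turned to -0.34 with 9 arrays and no term for the set.

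Markers of other cells were low beside those of T cells. The 6 T cell markers averaged 11.64 to 11.66 on the FR1 arrays and 11.9 to 11.98 on the FR3 Klrg1- arrays. The averages of the B cell, plasma cell, macrophage, dendritic cell, neutrophil, erythroid, platelet and NK cell lists lay between 4.29 and 6.17 in both groups. The 2 CD8 T cell markers averaged 6.99 to 7.19 in FR1 and 6.62 to 6.68 in FR3 Klrg1-. None of the 5 plasma cell and 7 macrophage markers was called by limma, and 1 of each list was higher and 1 lower at an unadjusted p under 0.05. None of the 7 dendritic cell, 6 neutrophil, 2 erythroid and 4 platelet markers passed even the unadjusted threshold (0 genes). Cd22 and the NK receptor gene Klrb1c were higher and Cd79a and Cd8b1 lower. The call on Cd79a was lost without FR1 replicate 2 (adjusted p = 0.133, limma) or FR3 Klrg1- replicate 2 (0.224), and that on Cd8b1 without FR3 Klrg1- replicate 1 (0.117). The part of such cells in the results was not tested.

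The genes named first were chosen among those with no overlap between the FR1 and FR3 Klrg1- arrays, which held for 48.9% of all genes (25.3% higher in FR3 Klrg1- and 23.6% lower). Of the 30 called genes with the largest rise, Penk stood first. Penk encodes proenkephalin, the precursor of the enkephalin opioid peptides. It read 7.19 and 7.31 in FR1, 8 and 7.66 in FR2, and 11.40 and 11.33 in FR3 Klrg1-. These FR3 Klrg1- arrays lay far above the FR1 and FR2 arrays, and the rise over FR1 was 4.11 ± 0.14 (SE, adjusted p = 2.93e-10, limma), or 17.3-fold. Nrn1, which encodes the membrane-anchored neuritin, was at 7.19 and 7.68 in FR1 and at 10.27 and 10.00 in FR3 Klrg1- (2.70 ± 0.16 SE, adjusted p = 4.18e-08). Gucy1a1 and Gucy1b1, the subunits of the nitric oxide receptor soluble guanylate cyclase, rose as well. Of the 11 genes measured on this list, which was put together after such genes had been seen to rise, 5 were higher by limma and none lower (0 at an unadjusted p under 0.05). Gucy1a1 read 6.43 and 6.49 against 8.18 and 8.25, a change of 1.75, and Gucy1b1 changed by 0.97. All bulk values here leave one ambiguity: a higher share of cells with a transcript and more transcript per cell cannot be told apart.

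Suppressor molecules, the secreted and surface proteins with which Tregs restrain other cells, were mostly higher. Of 18 measured, 12 were higher and 2 lower, with a median of 1.42 against 0.02 for all genes. Like every list here, this one was chosen with earlier results of these data known. It holds Penk, Il1r2, Il10, Tigit and Cd83, which are among the 30 largest rises, so its count and median are not independent of them. Over all genes tested 5.43% were higher and 4.91% lower, and every list count here stands beside those shares. Il10, the gene of the suppressive cytokine IL-10, read 5.46 and 6.11 in FR1 and 9.25 and 9.80 in FR3 Klrg1-, and its rise was 3.74 ± 0.20 (SE, adjusted p = 1.87e-08, limma). Fgl2, a secreted fibrinogen-like suppressor, changed by 2.16, Ebi3, a subunit of IL-35 and IL-27, by 1.97, and the ectoenzyme genes Nt5e (CD73) and Entpd1 (CD39), which turn extracellular ATP into adenosine, by 1.72 and 0.74. Itgb8, the integrin chain that activates latent TGF-beta, read 7.47 and 7.51 against 10.30 and 10.48, while its partner Itgav changed by 1.55. The values of Tgfb1 (0.23) and of Il12a, the other subunit of IL-35 (-0.02), were not called. Of the granule killing genes on the list, Gzmb rose by 1.12 and the pore protein Prf1 fell by 0.86. The other lower member was Il2ra (-0.47), the IL-2 receptor alpha chain. Its call was lost without FR1 replicate 2, FR3 Klrg1- replicate 1 or FR3 Klrg1- replicate 2, with changes of -0.45, -0.53 and -0.42. On replicates 3 and 4 Il2ra read 11.17 and 11.07, above the 10.85 and 10.90 of FR1.

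The IL-1 pathway moved at its decoy receptor and at the genes of inflammasome sensors and inflammatory caspases. Il1r2 binds IL-1 without signalling. It read 5.71 and 5.75 in FR1 and 9.29 and 9.81 in FR3 Klrg1-, and the rise was 3.82 ± 0.16 (SE, adjusted p = 2.51e-09, limma). Of 16 genes on this list, 8 were higher by limma and none lower (1 at an unadjusted p under 0.05), with a median of 0.34. Casp4, the mouse caspase-11 that senses lipopolysaccharide, changed by 2.44 and Casp1, which matures IL-1 beta and IL-18, by 1.94. Naip5, Naip6 and Naip2, which hand bacterial proteins to the inflammasome, changed by 3.50, 2.79 and 1.65. These genes are near-identical copies, so a probe set may read more than 1 of them. The values of Gsdmd (-0.05), whose product opens pores downstream of these caspases, of the adaptor Pycard (-0.41) and of the IL-1 receptor chain Il1rap (0.10) were not called. Cybb, the catalytic subunit of the phagocyte NADPH oxidase, read 6.67 and 6.92 against 10.39 and 10.47 (3.64 ± 0.13 SE, adjusted p = 3.25e-10). The myeloid inhibitory receptor genes Lilr4b and Lilrb4a changed by 3.20 and 3.06. They too are near-identical, and the mean of Lilr4b in FR1 was under percentile 25 of the genes there, as was that of Sccpdh (3.08), so both differences may be understated.

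**Figure D2:**
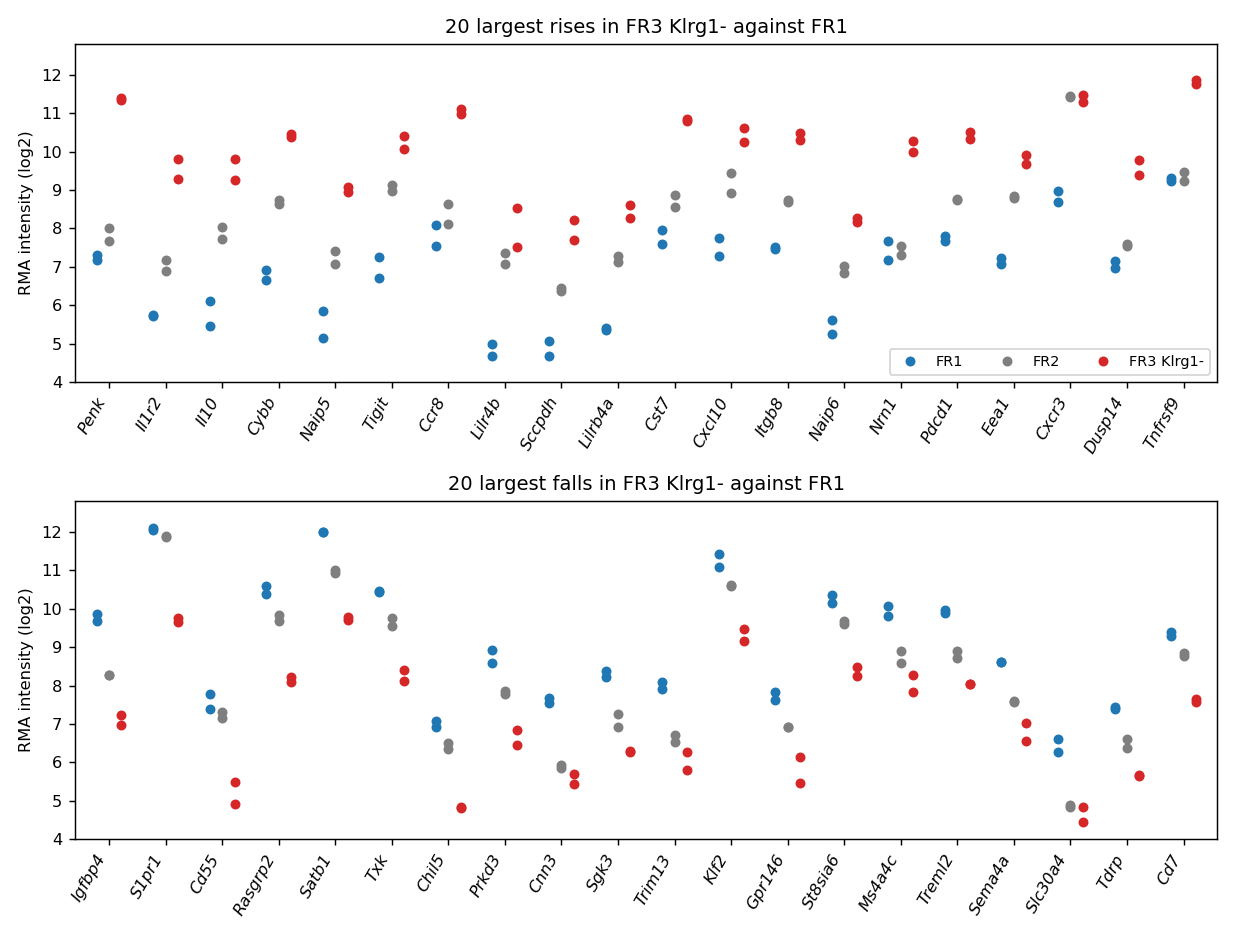
RMA intensity (log2) on each array of FR1 (blue), FR2 (grey) and FR3 Klrg1- replicates 1 and 2 (red) for the 20 genes with the largest rise (top) and the largest fall (bottom) in FR3 Klrg1- against FR1. The genes were chosen for not overlapping between red and blue; FR2 lies near FR1 for Nrn1, Tnfrsf9 and S1pr1 and at the FR3 Klrg1- level for Cxcr3.

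Co-inhibitory receptors, which restrain T cells, were listed together with ligands such as Cd274 and Pdcd1lg2. Of 15 measured members, 10 were higher by limma and none lower (1 at an unadjusted p under 0.05), with a median of 0.61. Without FR1 replicate 1 a lower call appeared. Tigit, which competes with CD226 for CD155, read 6.72 and 7.25 in FR1 and 10.07 and 10.40 in FR3 Klrg1-, a rise of 3.25 ± 0.17 (SE, adjusted p = 1.19e-08). Pdcd1, which encodes PD-1, read 7.68 and 7.80 against 10.34 and 10.50, a rise of 2.68 ± 0.12 (SE, adjusted p = 5.04e-09), and 9.01 and 9.18 on the excluded replicates 3 and 4. The MHC class II receptor Lag3 changed by 1.95, the PD-1 ligand Pdcd1lg2 by 1.78, Cd200r1 by 1.34, Cd200 by 0.90 and Ctla4, the CD80 and CD86 receptor of Tregs, by 0.61. On replicates 3 and 4 Ctla4 read 12.23 and 12.22, below the 12.33 and 12.43 of FR1. Spock2 and Cst7, the latter an inhibitor of cathepsins that process granzymes, were also among the 30 largest rises. Spock2 read 7.10 and 7.22 in FR1 and 9.33 and 9.91 in FR3 Klrg1-, but 7.22 and 7.55 on replicates 3 and 4. Cst7 read 7.59 and 7.96 against 10.80 and 10.84.

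Of the 21 measured costimulatory genes of the TNF receptor and CD28 families, 12 were higher and 1 lower, with a median of 0.56. Tnfrsf9, the gene of 4-1BB, a receptor that sustains activated T cells, read 9.32 and 9.24 in FR1, 9.24 and 9.48 in FR2, and 11.86 and 11.75 in FR3 Klrg1-. Only the last 2 arrays stood high, and the rise over FR1 was 2.52 ± 0.13 (SE, adjusted p = 1.05e-08, limma). On the excluded FR3 Klrg1- replicates 3 and 4 it read 10.00 and 10.03. Tnfrsf8, the gene of CD30, changed by 2.18, Tnfrsf1b, the TNF receptor of Tregs, by 1.82, Icos by 1.61 and Tnfrsf4, the gene of OX40, by 1.10. On replicates 3 and 4 Tnfrsf1b read 9.44 and 9.46 and Tnfrsf4 10.58 and 10.65, below both FR1 arrays. The ligand genes Tnfsf11, Tnfsf4, Tnfsf8 and Tnfsf14 changed by 1.08, 1.06, 1.02 and 0.98. Tnfrsf25, the receptor DR3, fell by 0.70.

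The 250 bases before the gene starts were read for the largest changes, since promoter motifs of activation and quiescence factors are one thing that genes moving together may share. RefSeq's promoter table (GRCm38.p6) held 22 of the 30 genes with the largest rise and 22 of the 30 with the largest fall. The AP-1 motif TGACTCA (or TGAGTCA, its other strand) is bound by factors that antigen receptor signals induce, and stood in 4.46% of all 32851 promoters. It was found in 3 of the 22 risen genes (Cxcl10, Tnfrsf9 and Tnfrsf8) and in 0 of the 22 fallen ones. The motif CCACACCC (or GGGTGTGG) is bound by KLF factors and stood in 3.2% of all promoters, in 1 of the 22 risen genes (Mmd) and in 2 of the 22 fallen ones (Igfbp4 and Trim13). Tnfrsf9 and Igfbp4 are given here, 5′ to 3′ on the plus strand with the motif in capitals, as the risen gene just described and the gene with the largest fall. Tnfrsf9 lies at chr4:150927749-150927998, before the later of its 2 listed starts, and Igfbp4 at chr11:99040994-99041243. A gene was counted when any of its listed promoters held the motif, while the percentages count single promoters. The gene counts and percentages are therefore not like measures, and no excess was tested. A match describes the letters and does not show that a factor binds.
Tnfrsf9: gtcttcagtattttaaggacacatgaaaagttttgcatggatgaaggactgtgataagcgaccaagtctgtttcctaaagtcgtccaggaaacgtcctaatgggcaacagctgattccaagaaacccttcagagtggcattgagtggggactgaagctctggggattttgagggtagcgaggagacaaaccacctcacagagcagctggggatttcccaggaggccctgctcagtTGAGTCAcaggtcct
Igfbp4: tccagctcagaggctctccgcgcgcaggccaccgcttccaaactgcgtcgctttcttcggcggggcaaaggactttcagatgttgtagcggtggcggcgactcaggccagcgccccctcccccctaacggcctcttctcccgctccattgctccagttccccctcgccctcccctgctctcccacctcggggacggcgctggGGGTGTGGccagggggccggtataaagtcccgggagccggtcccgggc

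Genes of lymphoid homing and egress moved the other way. Of 14 measured, 6 were lower and 2 higher, with a median of -0.36. S1pr1, the receptor that draws lymphocytes out of lymphoid organs along sphingosine-1-phosphate, read 12.09 and 12.05 in FR1, 11.90 and 11.86 in FR2, and 9.65 and 9.75 in FR3 Klrg1-. It thus stood high on every CD69- array and low on the CD69+ ones, and fell by 2.37 ± 0.12 (SE, adjusted p = 1.05e-08, limma). Klf2, the transcription factor that drives S1pr1, read 11.09 and 11.43 against 9.15 and 9.48 (-1.94 ± 0.15 SE, adjusted p = 4.07e-07). S1pr4, a related receptor, fell by 1.40. Ccr7, which guides cells to the T cell zone, read 11.67 and 11.79 in FR1, 10.10 and 10.14 in FR2 and 10.44 and 10.49 in FR3 Klrg1-, so it was lower in both CD62Llo groups. The integrin chain Itgb7, used for entry into gut tissue, fell by 1.07. The adhesion genes Cd44 (1.29) and Itgal (0.99) rose. On FR3 Klrg1- replicates 3 and 4 Itgal read 10.03 and 9.94, below the 10.81 and 10.92 of FR1.

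Several receptors for chemokines of inflamed tissue and of follicles rose. Of the 12 CC receptors measured 4 were higher and 2 lower (median 0.17), and of the 9 others 3 were higher by limma and none lower (0 at an unadjusted p under 0.05; median 0.22). Ccr8, a receptor of tissue Tregs, read 7.53 and 8.08 in FR1, 8.12 and 8.63 in FR2, and 10.97 and 11.10 in FR3 Klrg1-, a rise of 3.23 ± 0.18 over FR1 (SE, adjusted p = 2.21e-08, limma). On FR3 Klrg1- replicates 3 and 4 it read 8.52 and 8.56, close to FR2. Cxcr3, the receptor for the interferon-induced chemokines of type 1 inflammation, read 8.69 and 8.98 in FR1, 11.45 and 11.41 in FR2 and 11.30 and 11.46 in FR3 Klrg1-. Cxcr5, which leads cells into B cell follicles, read 6.60 and 7.02 against 8.90 and 9.03 (2.16 ± 0.14 SE, adjusted p = 1.25e-07), and Bcl6, the factor of follicular T cells, changed by 1.02. The decoy-like Ccrl2 changed by 2.00, Cxcr6 by 1.62, Ccr6 by 1.57 and the skin receptor Ccr4 by 1.48, while the gut receptor Ccr9 fell by 1.46. Ccr2 was not called (0.23, adjusted p = 0.381).

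**Figure D3:**
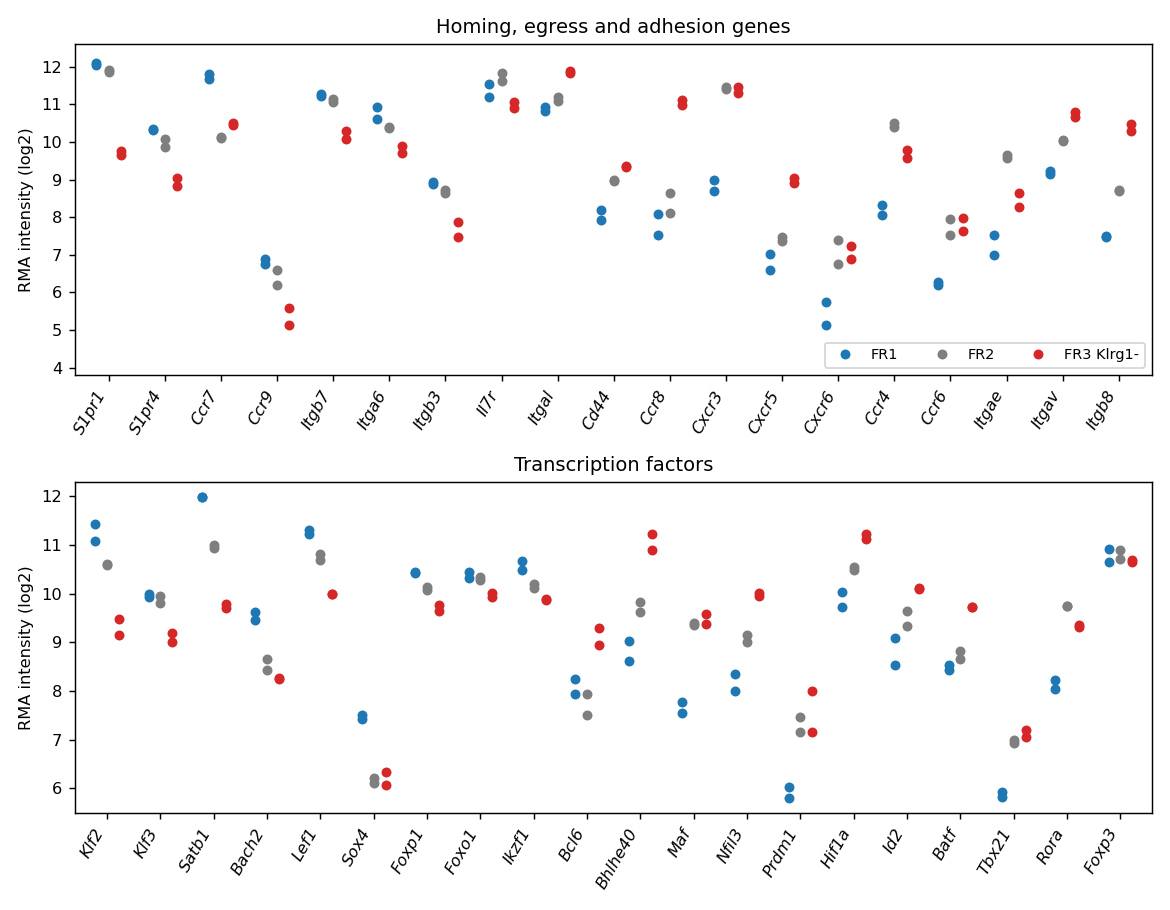
RMA intensity (log2) on each array of FR1 (blue), FR2 (grey) and FR3 Klrg1- replicates 1 and 2 (red) for homing, egress and adhesion genes (top) and for transcription factors (bottom). S1pr1 falls from about the FR1 level to 9.65 and 9.75 only in the red points, Ccr7 is lower in both CD62Llo groups, and the Foxp3 points of all groups overlap.

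Of the 21 integrin chains measured, 6 were higher and 3 lower (median 0.02). Besides Itgb8 and Itgav, Itgae, the CD103 chain that binds E-cadherin, was higher than in FR1 by 1.19 and Itgb1 by 0.79. The lower ones were Itgb3 (-1.24), Itgb7 and Itga6 (-0.97), the laminin receptor chain.

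Transcription factors changed in opposite directions on the lists of central and of effector cells. Of 15 central factors, 9 were lower and 1 higher, with a median of -0.69. Satb1, a chromatin organiser, read 11.99 on both FR1 arrays and 9.70 and 9.79 in FR3 Klrg1- (-2.24 ± 0.12 SE, adjusted p = 1.53e-08, limma). Bach2, a repressor of effector genes, fell by 1.28, Lef1 and Sox4 fell by 1.26 each, Klf3 fell by 0.86, Foxp1 fell by 0.74 and Ikzf1 fell by 0.69. The higher member was Bcl6, which is also on the effector list.

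Of 24 effector factors, 16 were higher and 1 lower, with a median of 0.67. Bhlhe40, an activation-induced repressor, read 8.61 and 9.03 in FR1 and 10.90 and 11.23 in FR3 Klrg1- (2.25 ± 0.16 SE), but 8.97 and 8.70 on FR3 Klrg1- replicates 3 and 4. Maf, a driver of Il10, changed by 1.81, Nfil3 by 1.80, the oxygen-regulated Hif1a by 1.31 and Id2 by 1.30. Tbx21, the type 1 factor T-bet, changed by 1.26, Batf by 1.24, Rora by 1.20 and Ahr by 0.96. Prdm1 read 5.80 and 6.02 against 7.16 and 8.01, a rise of 1.68 ± 0.21 with a wide gap between its FR3 Klrg1- arrays. Ikzf3 fell by 0.75, and Gata3, the type 2 factor, was not called (0.31).

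Of 21 Treg identity genes, 10 were higher and 4 lower (median 0.37). Besides genes named above, Plagl1 changed by 1.33, the semaphorin receptor Nrp1 by 1.13, the folate receptor-like Izumo1r by 0.86 and Ikzf2, the gene of Helios, by 0.75. On FR3 Klrg1- replicates 3 and 4 Plagl1 read 7.46 and 7.99, against 7.59 and 8.02 in FR1. Nrp1, Izumo1r and Ikzf2 read above both FR1 arrays there. Gpr83, a receptor gene of Tregs, read 9.98 and 10.11 against 9.04 and 8.92 (-1.07 ± 0.15 SE, adjusted p = 0.000147, limma). Flicr, a noncoding RNA that limits Foxp3, fell by 0.91. It read 7.40 and 7.10 on these FR3 Klrg1- arrays but 8.70 and 8.87 on replicates 3 and 4, above the 8.12 and 8.20 of FR1. The count of lower members was 2 without FR1 replicate 2, FR3 Klrg1- replicate 1 or FR3 Klrg1- replicate 2.

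Cytokine and chemokine genes were higher by limma for 9 of 27 measured and lower for none (0 at an unadjusted p under 0.05), with a median of 0.16. Cxcl10, a ligand of Cxcr3, read 7.29 and 7.75 in FR1 and 10.26 and 10.61 in FR3 Klrg1- (2.91 ± 0.19 SE, adjusted p = 8.34e-08). Ccl5 changed by 1.85, Ifng by 1.69, Ccl1, the ligand of Ccr8, by 0.78 and Il4 by 0.72.

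Cytokine receptors went both ways, 8 higher and 8 lower of the 34 measured on a list that also holds the growth factor gene Csf1 (median 0.03). Csf1 changed by 1.60, the IL-18 receptor chain Il18rap by 1.18, Il17rb by 0.97, Il10ra by 0.76 and Il12rb1 by 0.64. Il6ra, the IL-6 receptor, read 11.08 and 11.12 against 9.90 and 9.67 (-1.31 ± 0.13 SE, adjusted p = 6.46e-06, limma). Ifngr2 fell by 1.41, Il17ra fell by 1.07, Il4ra fell by 0.87 and Ifngr1 fell by 0.69. The survival receptor Il7r was not called (-0.38, adjusted p = 0.119), but was without FR1 replicate 1 (adjusted p = 0.0451, limma).

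Of the 30 measured genes of T cell receptor and Ras signalling, 8 were higher and 9 lower, with a median of -0.06. Without FR1 replicate 1 the higher count was 5, and without FR3 Klrg1- replicate 2 it was 3. Rasgrp2, an exchange factor that activates Rap1, read 10.37 and 10.60 in FR1 and 8.10 and 8.23 in FR3 Klrg1- (-2.32 ± 0.13 SE, adjusted p = 2.02e-08, limma). The Tec kinase Txk read 10.47 and 10.44 against 8.40 and 8.12, and fell by 2.19. Prkd3, Sgk3, the Ras-inactivating Rasa3, Prkd2 and Prkcq were lower too, by values of -2.12, -2.01, -1.62, -0.93 and -0.91. The feedback inhibitors Spry1 and Dusp4 were higher by 1.23 and 0.97 (Dusp4 turned to -0.81 with 9 arrays and no term for the set), the kinase Zap70 by 0.65, and the phosphatase Dusp14 by 2.54. Dusp14 read 9.40 and 9.79 on these FR3 Klrg1- arrays and 7.12 and 7.57 on replicates 3 and 4, against 6.97 and 7.14 in FR1.

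Of the 32 genes that T cell receptor signals induce at once, 7 were higher and 3 lower, and the median was 0.01. No lower call remained without FR1 replicate 2 or FR3 Klrg1- replicate 1, and 5 were lower with an intensity trend. With 9 arrays and no term for the set, 0 were higher and 0 lower, and the median was -1.04. Atf3, Nr4a2 and Egr2 were higher by 1.34, 1.20 and 1.06. Nr4a2 read 10.52 and 10.53 on these FR3 Klrg1- arrays but 8.53 and 8.27 on replicates 3 and 4, below the 9.18 and 9.46 of FR1. Nr4a1, often used as a readout of these signals, read 12.19 and 12.42 in FR1 and 11.88 and 12.10 in FR3 Klrg1-, and was not called (-0.32, adjusted p = 0.18).

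**Figure D4:**
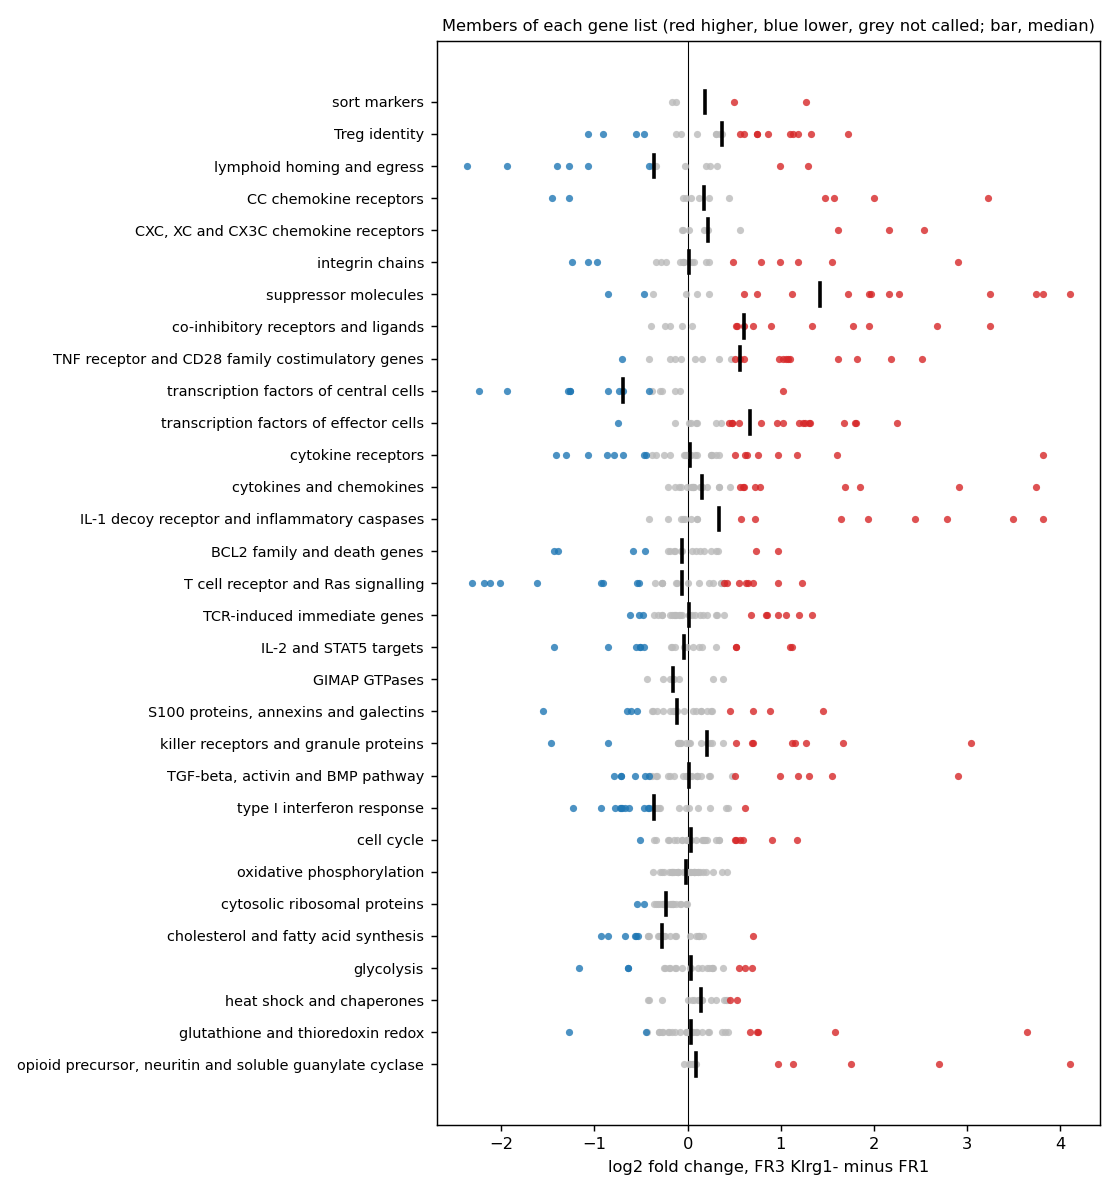
Log2 fold change of FR3 Klrg1- against FR1 for the measured members of each gene list, red where called higher, blue where called lower and grey where not called by limma, with a bar at the list's median. The suppressor list has its median farthest to the right at 1.42 and the central transcription factors farthest to the left at -0.69, while the medians of oxidative phosphorylation and cell cycle genes lie at -0.02 and 0.04. The lists were chosen with earlier results of these data known.

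Among the 19 measured BCL2 family and death genes, 2 were higher and 4 lower (median -0.06). Bcl2 read 10.68 and 10.84 in FR1 and 9.35 and 9.32 in FR3 Klrg1- (-1.43 ± 0.13 SE, adjusted p = 2.88e-06, limma). Bcl2l11, the gene of its antagonist Bim, fell by 1.39. The survival gene Bcl2l1 rose by 0.73 and the death gene Pmaip1, which encodes Noxa, by 0.97. The lower count was 2 without FR1 replicate 2 or FR3 Klrg1- replicate 2.

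Of the 23 killer receptor and granule genes measured, 8 were higher and 2 lower (median 0.21). Nkg7, a granule membrane protein, changed by 1.67 beside Cst7, and the cathepsin Ctsw fell by 1.47. Of the 25 S100, annexin and galectin genes measured 4 were higher and 4 lower (median -0.11), and the lower count was 2 without FR1 replicate 2 or FR3 Klrg1- replicate 1. S100a11 changed by 1.45, and the LIM protein gene Crip1 on that list fell by 1.55.

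The type I interferon response was lower for 11 of 25 measured genes and higher for 1, with a median of -0.36. Oas2, an antiviral RNA sensor, read 7.56 and 7.30 against 6.36 and 6.03 (-1.23 ± 0.15 SE, adjusted p = 4.18e-05, limma), Usp18 fell by 0.93 and Irf7 fell by 0.67. The sensor Ifih1 rose by 0.62. The lower count was 7 without FR3 Klrg1- replicate 1 and 7 without replicate 2.

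Most members of the metabolic and growth lists were not called. Over all genes 5.43% were higher and 4.91% lower. Without genes under percentile 40, 1195 of 11963 genes were higher and 1262 lower. The counts in these lists stand beside such shares, and no difference from them was tested. None of 34 oxidative phosphorylation genes was called by limma (2 were higher and 2 lower at an unadjusted p under 0.05), and their values ran from -0.37 to 0.42; 1 was higher without FR1 replicate 1, FR2 replicate 1 or FR2 replicate 2, and 2 with an intensity trend. Of 23 ribosomal protein genes, 2 were lower by limma and none higher (0 at an unadjusted p under 0.05; median -0.23), and no lower call remained without FR1 replicate 1 or FR3 Klrg1- replicate 1 (1 without FR3 Klrg1- replicate 2), while 8 were lower with an intensity trend in the variance and 4 without genes under percentile 40. Of 32 cell cycle genes, 6 were higher and 1 lower (median 0.04), but 2 were higher without FR1 replicate 1 or FR3 Klrg1- replicate 2, and none was lower without FR1 replicate 2 or either FR3 Klrg1- array. Mcm6, a part of the replication helicase, changed by 1.17, and the proliferation marker Mki67 was not called (0.21, adjusted p = 0.473). Of 25 cholesterol and fatty acid synthesis genes, 6 were lower and 1 higher (median -0.28), among them the sterol pathway genes Idi1 (-0.93), Sqle (-0.86) and Srebf2 (-0.67), their activator. Of 24 glycolysis genes, 3 were higher and 3 lower, and no higher call remained without FR3 Klrg1- replicate 1. Pdk1, a kinase that inactivates the enzyme pyruvate dehydrogenase, fell by 1.17. Of 31 redox genes, 5 were higher and 2 lower. Glrx rose by 1.58, and Txnip, an inhibitor of thioredoxin and of glucose uptake, fell by 1.27. The higher count fell most without FR3 Klrg1- replicate 2. The lower count fell without any 1 of the FR1 and FR3 Klrg1- arrays. With an intensity trend or without genes under percentile 40, 8 were higher and 3 lower.

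Several further genes among the 30 with the largest fall encode secreted, surface and signalling proteins. Igfbp4, a binding protein of insulin-like growth factors whose promoter is shown above, read 9.67 and 9.86 in FR1 and 6.98 and 7.24 in FR3 Klrg1- (-2.65 ± 0.13 SE, adjusted p = 9.49e-09, limma). Cd55, which protects cells from complement, read 7.39 and 7.77 against 5.49 and 4.93. Ripor2, an inhibitor of RhoA, read 11.27 and 11.36 against 9.68 and 9.72. Sema4a, Cd7 and the RNA sensor gene Tlr7 fell by 1.81, 1.73 and 1.56.

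FR2 differs from FR1 in the CD62L gate and from FR3 Klrg1- in the CD69 gate, so it divides the difference. FR3 Klrg1- against FR2 gave 1320 calls (6.62% of genes; 776 or 3.89% higher and 544 or 2.73% lower) and FR2 against FR1 gave 1327 (6.66%; 581 or 2.91% higher and 746 or 3.74% lower), and each shares its arrays with the comparison above. For Tnfrsf9 the step from FR1 to FR2 was 0.08 (adjusted p = 0.787) and that from FR2 to FR3 Klrg1- 2.44 (9.11e-08, limma). Nrn1 moved by -0.01 and 2.71 in the same order, Gucy1a1 by 0.06 and 1.69, S1pr1 by -0.19 and -2.18, and Ripor2 by -0.15 and -1.47. These genes differed between the CD69 gates within CD62Llo cells. Cxcr3 moved by 2.59 (1.14e-07) from FR1 to FR2 and by -0.05 (0.908) from there, Maf by 1.72 and 0.10, Fgl2 by 2.16 and -0.01, Ctsw by -1.49 and 0.02, and Bcl2 by -1.23 and -0.20. These genes already differed between the CD62L gates among CD69- cells. Il1r2 changed at both steps, by 1.32 and 2.51, as did Cybb (1.89 and 1.75), Itgb8 (1.22 and 1.68) and Satb1 (-1.01 and -1.23). Itgae and Ccr4 went up and then down, Itgae by 2.35 and -1.15 and Ccr4 by 2.26 and -0.78.

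**Figure D5:**
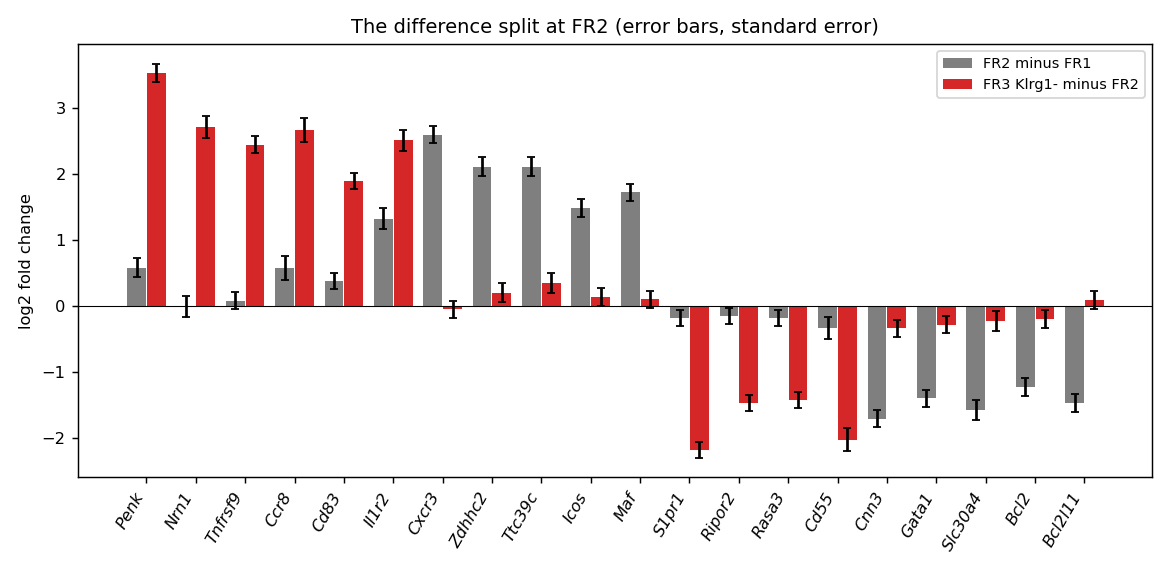
Log2 fold changes from FR1 to FR2 (grey) and from FR2 to FR3 Klrg1- (red) with their standard errors, for genes whose difference lies mostly at one step or is spread over both. Tnfrsf9 and S1pr1 have almost their whole bar in red (2.44 and -2.18), Cxcr3 has it in grey (2.59), and Il1r2 has both (1.32 and 2.51).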

How the data were processed

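RNA was measured in splenic Tregs sorted by CD62L, CD69 and Klrg1. RNA (20 to 50 ng a sample, per the labels) was amplified for Affymetrix Mouse Gene ST 1.0 arrays. The authors deposited log2 intensities made with RMA (background correction, normalization between arrays, probe summary), per the submitters' processing notes; its version, and whether all arrays were normalized together, are not given in the sources used here. Of 35556 rows, 21789 probe sets had 1 gene symbol, 1621 several and 12146 none in the probe table. The probe set with the highest mean was kept, leaving 19938 genes without an intensity filter. Limma 3.58.1 (R 4.3.3) was fitted to 6 arrays (FR1, FR2, FR3 Klrg1- replicates 1 and 2), with moderated variances, Benjamini-Hochberg adjustment and a threshold of 0.05. Its recovery was tested on simulated data. Alternatives changed the arrays, normalization, probe rule, variance model and filter, added the replicate block, or left out each array. Named genes were the 30 largest called changes per direction without overlap between groups, leaving out clone-named, receptor-segment, olfactory and small RNA genes, and members of 31 lists and 10 marker lists (639 of 699 genes measured). Lists share members, and median and counts describe them. The members and lists were chosen with earlier results of these data known. Promoters are RefSeq's (GRCm38.p6).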

Additional observations from a re-analysis of the deposited data

Results flagged for a closer look

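Lilr4b stood out within the 4 arrays labelled FR3 Klrg1-. It read 7.52 on replicate 1 and 8.52, 8.49 and 8.54 on replicates 2, 3 and 4, so the gap below replicate 1 took up 0.95 of their range. About 1 in 20 such groups would be marked by chance, and many genes were looked at.

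Chil5, a chitinase-like gene, lay on opposite sides of FR1 in the arrays labelled FR3 Klrg1-. It read 6.93 and 7.08 in FR1 and 4.85 and 4.81 in FR3 Klrg1- replicates 1 and 2, which lay below percentile 25 of the arrays, but 7.75 and 7.49 in replicates 3 and 4. The mean of replicates 3 and 4 was 0.61 above that of FR1. FR1 has arrays in the first set only, so in this difference group and array set cannot be told apart, and it was not tested.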

How the results depend on the processing

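Direction and call of the named genes in FR3 Klrg1- against FR1 were kept by all 187 of them with only the 4 arrays compared, with the array set as a block, with array weights, with quantile normalization, with every probe set and with the mean of a gene's probe sets. When every row was tested, 11 lost their call, and with an intensity trend in the variance Il7r, Pycard and Nr4a1 gained one (adjusted p = 0.0256, 0.0246 and 0.0396, limma), as did Pycard without genes under percentile 40 (0.0207). With 9 arrays and no term for the set 78 lost their call and 7 changed sign. Those were Cd4 (-0.34), Gata3 (-0.31), Tgfb1 (-0.76), Il1rap (-0.17), Dusp4 (-0.81), Pycard (0.09) and Gsdmd (0.08). In that setting FR3 Klrg1- against FR2 changed sign for Spock2 (-0.65), Icos (-0.22), Maf (-0.46), Bcl2l11 (-0.66) and Ccr7 (-0.25). Without single arrays, sign changes were met by uncalled differences: Foxp3 ran from -0.26 to 0.03, Il12a from -0.07 to 0.03, Gsdmd from -0.1 to 0 and Mki67 from -0.02 to 0.44, and in FR3 Klrg1- against FR2 Cxcr3 ran from -0.13 to 0.03, Maf from -0.02 to 0.21 and Bcl2l11 from -0.03 to 0.2. In FR2 against FR1 this held for Nrn1 (-0.25 to 0.23, with 0.11 without FR2 replicate 1) and Tnfrsf9 (-0.04 to 0.2), and under quantile normalization for Nrn1 (0.03) and S1pr1 (0.03). The causes were not tested.

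Counts of calls moved more. Higher and lower calls numbered 221 and 218 in FR3 Klrg1- against FR1 with 9 arrays and no term for the set, 638 and 555 over every row, and 274 and 154 with a change of at least 1; without single arrays they ran from 658 to 1008 and from 522 to 914. In FR3 Klrg1- against FR2 (776 and 544) the same settings gave 27 and 28, 191 and 136, and 88 and 57, with 261 to 836 and 218 to 582 without single arrays. In FR2 against FR1 (581 and 746) they gave 41 and 11, 178 and 114, and 103 and 55, with 241 to 476 and 145 to 638 without single arrays; the lower count was also 462 with the set as a block, 1220 with an intensity trend and 1291 without genes under percentile 40. Of the 2061 genes called in FR3 Klrg1- against FR1, 439 were called the same way with 9 arrays and no term for the set, 1637 with the set as a block and 878 over every row, where more tests are adjusted for. With 9 arrays and no term for the set the lists held fewer calls: 9 higher suppressor molecules and 1 lower, 4 and 0 co-inhibitory, 1 and 0 costimulatory, 4 and 1 effector factors, 0 and 7 central factors, and 0 and 3 homing genes. In that setting Treg identity genes counted 1 higher and 0 lower, with a median of -0.02. Type I interferon genes counted 1 higher and 3 lower. Signal over background limits genes below percentile 25 of an array.

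For arrays with the same replicate number, deviations from the group means correlated at 0.144 (FR3 Klrg1- with FR1), 0.0242 (FR3 Klrg1- with FR2) and 0.182 (FR2 with FR1). Labels state no pairing, and with 1 of these values under 0.1 and 2 arrays a group the numbers were not taken to pair the arrays. With the replicate block the calls were 1229 and 1125, 943 and 648, and 714 and 957 in these comparisons, and all 2061 genes of the first were called the same way. Of the named genes, Pycard gained a call (adjusted p = 0.0424, limma) and the call of no other changed. The replicate block left each difference as it was, so only calls could change.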

Other observations

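The lists not described above had medians between -0.15 and 0.14. Over all genes tested 5.43% were higher and 4.91% lower. Of 19 measured IL-2 and STAT5 targets, 4 were higher and 6 lower (median -0.04), among the lower ones Bcl2 and Il2ra. The higher count was 2 without FR1 replicate 1 or FR3 Klrg1- replicate 2, and the lower count was 2, 3 and 2 without FR1 replicate 2, FR3 Klrg1- replicate 1 and FR3 Klrg1- replicate 2. Of 32 measured genes of the TGF-beta, activin and BMP pathway, 6 were higher and 6 lower (median 0.01). The BMP receptor Bmpr2 rose by 0.99, while the inhibitory Smad7 fell by 0.72 and the activin receptor Acvr1b fell by 0.71. The lower count was 3 without FR1 replicate 2 or FR3 Klrg1- replicate 2. None of the 8 GIMAP GTPases was called by limma (1 higher and 2 lower at an unadjusted p under 0.05; median -0.15), while 1 was lower without FR2 replicate 1 or FR2 replicate 2. Of 18 heat shock genes 2 were higher by limma and none lower (2 at an unadjusted p under 0.05; median 0.14). The higher count was 0 without FR3 Klrg1- replicate 2 and 1 without any 1 of the FR1 and FR2 arrays, and the lower count was 2 without FR1 replicate 1.

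Some genes that stood apart in FR2 were close in the groups compared. Ccr2, the receptor for monocyte chemoattractant chemokines, read 6.18 and 6.52 in FR1, 8.84 and 9.01 in FR2 and 6.63 and 6.53 in FR3 Klrg1-. Itga2, a collagen receptor chain, read 6.57 and 6.43, 8.04 and 8.13, and 6.04 and 6.27 in that order. For these genes FR2 alone was high. They were picked after their values were seen.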
